A study of Mus musculus with 9 samples.

Results

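Dendritic cell subset genes were followed in CD11b+ cells isolated from mouse liver 48 hours after acetaminophen (APAP), which was injected to cause acute liver failure. The 10 genes were taken by symbol and fall into 5 genes of type 1 conventional dendritic cells (cDC1: Xcr1, Clec9a, Batf3, Irf8 and Itgae), 2 of type 2 cells (cDC2: Cd209a and Irf4), 2 shared by conventional dendritic cells (Flt3 and Zbtb46) and 1 of plasmacytoid dendritic cells (Siglech). They are 10 of 45777 genes measured, and 9 of the 10 passed the filter of at least 1 TPM (transcripts per 1000000) in at least 3 libraries, as did 13820 genes in all. The study has 9 bulk RNA-seq libraries in 3 groups of 3, and mice of every group received APAP. The PBS group (titled APAP) was treated with PBS. The HEK-EV group (APAP+HEKSIRP-EV) received extracellular vesicles called SIRP-EV made by the human embryonic kidney line HEK, and the MSC-EV group (APAP+SIRP-EV) received SIRP-EV derived from MSC, in both cases into a vein 8 hours after APAP. SIRP and MSC are not spelled out in the labels, which state no strain, sex, age or dose. No group without APAP was analysed here. The labels do not say that each library came from its own mouse, so p-values measure only the spread between these libraries.

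Dendritic cells take up material in tissues and present it to T cells. The cDC1 subset is known for handling dead cells and for presenting to CD8 T cells, and depends on the transcription factors IRF8 and BATF3. The cDC2 subset is more diverse, depends in part on IRF4 and mainly primes CD4 T cells, while plasmacytoid cells are specialised in making type I interferon. CD11b, the protein used for the isolation, is typically found on cDC2, monocytes, macrophages and neutrophils, and is low or absent on most cDC1 and plasmacytoid cells. Several of these genes are also used by other CD11b+ cells, such as Irf8 by monocytes and macrophages. In bulk libraries, fewer cells of a type and less RNA per cell cannot be told apart.

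The promoter region of 1 gene per subset shows the regulatory letters that lie at these markers, since each subset is built by different factors. The windows reach from 250 bases before the annotated start to 10 bases after it (RefSeq, GRCm38.p6), and capitals mark a match to a searched motif on either strand.
Clec9a (cDC1, chr6:129408612-129408871, plus strand, no match): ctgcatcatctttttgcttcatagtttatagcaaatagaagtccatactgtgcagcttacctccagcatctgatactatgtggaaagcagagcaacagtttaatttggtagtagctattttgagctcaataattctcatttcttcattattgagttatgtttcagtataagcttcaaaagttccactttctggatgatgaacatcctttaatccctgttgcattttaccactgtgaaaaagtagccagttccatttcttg
Cd209a (cDC2, chr8:3748975-3749234, minus strand, capitals match the composite element of PU.1 and an interferon regulatory factor, GGAA and GAAA with 2 bases between): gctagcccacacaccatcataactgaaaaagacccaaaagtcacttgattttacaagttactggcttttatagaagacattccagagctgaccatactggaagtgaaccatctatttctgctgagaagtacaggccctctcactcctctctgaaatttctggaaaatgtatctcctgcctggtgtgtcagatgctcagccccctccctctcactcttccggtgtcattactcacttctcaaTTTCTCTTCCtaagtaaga
Siglech (plasmacytoid, chr7:55767934-55768193, plus strand, capitals match the E-box of E proteins, CAGGTG): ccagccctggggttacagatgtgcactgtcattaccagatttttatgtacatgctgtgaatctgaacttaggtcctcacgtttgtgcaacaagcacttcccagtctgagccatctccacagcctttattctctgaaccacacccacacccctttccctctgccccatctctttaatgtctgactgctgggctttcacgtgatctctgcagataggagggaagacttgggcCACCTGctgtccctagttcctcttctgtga
Promoter windows of 300 bases were found for 9 of the 10 genes, with 2 windows for Irf8. The composite element stood in the window of Cd209a alone among them and in 2.72% of all 32851 windows. The E-box stood at Irf8, Siglech and Zbtb46 and in 20.2% of all windows. An AP-1 element (TGANTCA), the type of site used by BATF3 with JUN, stood at Zbtb46 and in 7.81% of all windows, and the interferon regulatory factor element (GAAA repeated after 2 bases), present in 3.44% of all windows, stood at none of the 9. The composite element and the GAAA repeat can overlap. These matches describe letters in the windows only.

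The libraries differed in ways that bear on every comparison. Depth was followed as coverage divided by FPKM (fragments per kilobase of transcript, scaled to 1000000 of them), at 5.28 to 6.32 in PBS, 6.25 to 6.47 in HEK-EV and 6.58 to 6.84 in MSC-EV libraries. By this measure every MSC-EV library lay above every PBS and HEK-EV library. A fit with depth as a covariate therefore cannot fully separate depth from the MSC-EV group. No read counts were used, so the number of reads behind a level is unknown. Transcripts of pancreatic acinar cells (the acinar list without Cela1 and Ctrl) made up 0.00257% and 0.0988% of TPM in HEK-EV libraries 1 and 2 and 0.0115% and 0.284% in MSC-EV libraries 1 and 3, against at most 3.29e-05% in the other 5, so all PBS libraries lay on the side without them. Itgam, which encodes CD11b, lay at 289 to 377 TPM in PBS, 339 to 434 in HEK-EV and 196 to 255 in MSC-EV libraries. Ptprc, which encodes the pan-leukocyte protein CD45, was lower in MSC-EV than in PBS libraries (-0.46, SE 0.0873, limma adjusted p = 0.0271). Itgam and Ptprc both passed as lower in MSC-EV than in HEK-EV libraries, with differences between -0.70 and -0.53. Differences are throughout of log2(TPM + 1), the first group minus the second, from a limma fit over all genes with Benjamini-Hochberg adjusted p. Of 13820 genes tested, 706 (5.11%) passed an adjusted p of 0.05 for MSC-EV against PBS, 817 (5.91%) for MSC-EV against HEK-EV and 0 (0%) for HEK-EV against PBS, where 495 (3.58%) had an unadjusted p under 0.05.

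None of the 9 tested dendritic genes passed the threshold in any of the 3 comparisons, against backgrounds of 5.11%, 5.91% and 0% of all genes. Their log2 differences lay between -0.28 and 0.37 for MSC-EV against PBS, -0.23 and 0.71 for MSC-EV against HEK-EV, and -0.37 and 0.04 for HEK-EV against PBS. The medians were -0.05, -0.09 and -0.05, beside 0.01, -0.02 and 0.03 over all genes tested. Taken apart, the median for MSC-EV against PBS was -0.16 for the 4 tested cDC1 genes, 0.20 for the 2 cDC2 genes, 0.16 for the 2 shared genes and -0.22 for Siglech. For MSC-EV against HEK-EV these were -0.13, 0.41, 0.16 and -0.16, and for HEK-EV against PBS -0.0365, -0.21, -0.0042 and -0.0594. At an unadjusted p under 0.05 stood Batf3, Irf8 and Flt3 for MSC-EV against PBS (3 of 9, background 23.0%) and Batf3, Cd209a and Flt3 for MSC-EV against HEK-EV (3 of 9, background 23.3%). For HEK-EV against PBS 0 of 9 did. The ranges of the groups were apart for 1 of the 9 genes in MSC-EV against PBS (background 26.0%), 3 in MSC-EV against HEK-EV (background 30.1%) and 0 in HEK-EV against PBS (background 7.81%, made up of 5.51% higher and 2.29% lower). Other fits brought some of these genes past the threshold, and most of these fits also called more genes in all. For MSC-EV against PBS these were Batf3, Irf8 and Flt3 with array quality weights (3 of 9, where 30.1% of all genes passed) and Batf3 with depth as a covariate (where 9.70% did) or without PBS replicate 1 (where 13.5% did). For MSC-EV against HEK-EV they were Batf3 with weights (where 15.1% of all genes passed), Cd209a with a replicate block (3.24%), and Batf3 and Flt3 with depth (10.5%). The fits with depth carry the limit given above, that depth was tied to the MSC-EV group. The MSC-EV and HEK-EV comparisons with PBS share the PBS libraries, and both MSC-EV comparisons share the MSC-EV libraries.

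**Figure D1:**
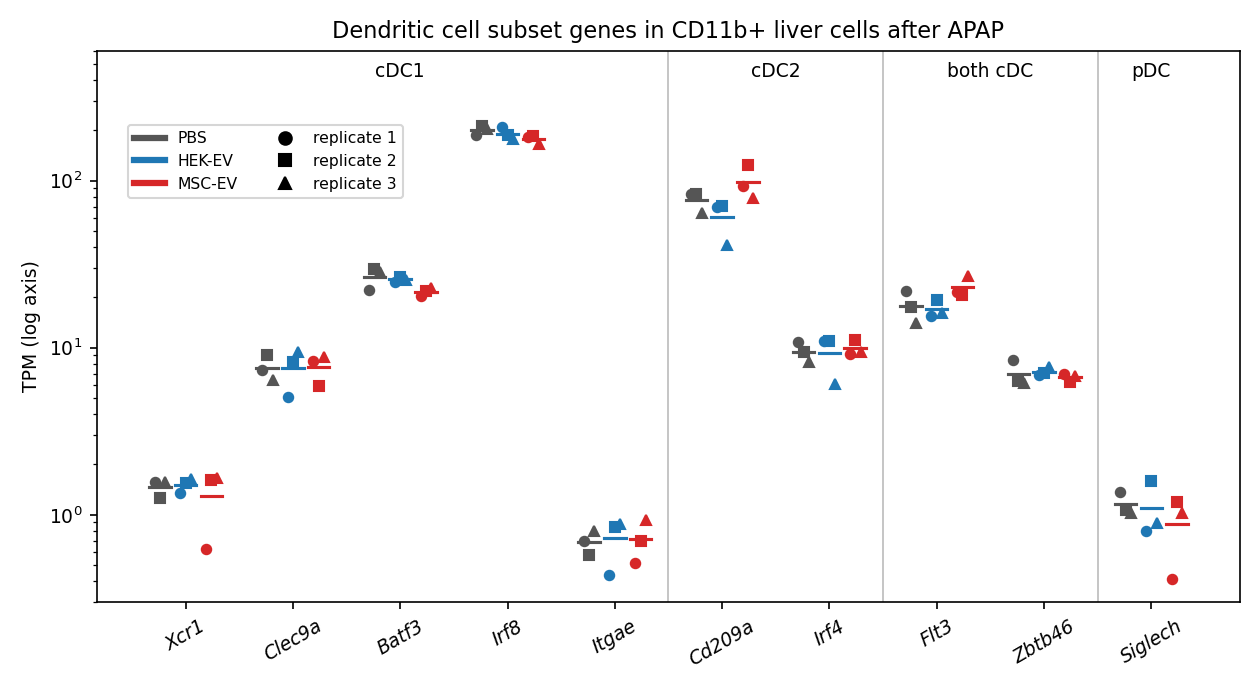
Level of each dendritic gene (TPM, log axis) in the 9 libraries, with PBS in grey, HEK-EV in blue and MSC-EV in red, a marker shape per replicate number and a line at each group mean (n = 3). Irf8 lay highest (165 to 213.5 TPM), Itgae stayed under 1 TPM in every library, and the groups overlapped for most genes.

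Among cDC1 surface genes, Clec9a encodes the receptor DNGR-1, which binds actin exposed by dead cells. It lies at chr6:129408862-129424764 on the plus strand (mm10). Its level was 7.39, 9.03 and 6.40 TPM in the PBS libraries, 5.07, 8.17 and 9.48 in HEK-EV and 8.32, 5.91 and 8.85 in MSC-EV. HEK-EV replicate 1 and MSC-EV replicate 2 were lowest, and the groups overlapped fully. The group means were 7.61 ± 1.33, 7.58 ± 2.26 and 7.69 ± 1.56 TPM (SD, n = 3 each). The log2 difference between MSC-EV and PBS was 0.01 with a 95% interval of -0.48 to 0.50 (limma, adjusted p = 0.987), so changes of up to about 1.41-fold (of TPM + 1) in either direction lay within the interval. Part of the Clec9a signal is uncertain because Clec12b lies across it on the other strand and strand use in counting is not stated, although Clec12b itself was at 0.270 to 1.36 TPM.

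Xcr1 encodes the receptor for the chemokine XCL1 and is the most restricted cDC1 marker of the set (chr9:123852315-123862029, minus strand). It was found at 1.57, 1.26 and 1.57 TPM in PBS, 1.35, 1.54 and 1.64 in HEK-EV and 0.624, 1.61 and 1.65 in MSC-EV libraries. A single library, MSC-EV replicate 1, stood below the other 8. The difference between MSC-EV and PBS was -0.14 (log2, SE 0.192, interval -0.57 to 0.29, limma adjusted p = 0.732), and without MSC-EV replicate 1 its sign turned to 0.0948. Clec9a was 3.68 to 7.18 times the level of Xcr1 in the 8 other libraries and 13.3 times in MSC-EV replicate 1. The mean coverage over Xcr1 was 1.68 to 4.70 reads per base, which limits the precision of these values.

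Itgae encodes the integrin chain CD103, which pairs with the product of Itgb7 and binds E-cadherin (chr11:73090505-73147449, plus strand). Its level was 0.701, 0.573 and 0.798 TPM in PBS, 0.436, 0.846 and 0.885 in HEK-EV and 0.516, 0.697 and 0.930 in MSC-EV libraries. No library reached 1 TPM, so Itgae was not tested, and its groups overlapped. Haspin, an intronless kinase gene inside Itgae on the other strand, lay at 4.56 to 7.57 TPM, above Itgae in every library. The partner chain Itgb7 was far more abundant, at 108 to 187.5 TPM in PBS, 137 to 141.5 in HEK-EV and 88.1 to 105 in MSC-EV libraries. The Itgb7 difference for MSC-EV against PBS was -0.64 (SE 0.168) and did not pass the threshold (limma adjusted p = 0.0590).

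Of the cDC1 transcription factors, Irf8 was the most abundant gene of the set (chr8:120736358-120756694, plus strand). It lay at 187.5, 213.5 and 205 TPM in PBS, 209, 189 and 177 in HEK-EV and 184, 185 and 165 in MSC-EV libraries. Every MSC-EV library lay below every PBS library, though PBS replicate 1 stood close to the highest of them, while HEK-EV overlapped both. Groups without overlap in this direction were found for 14.9% of all genes tested. The difference between MSC-EV and PBS was -0.18 (log2, SE 0.0785, interval -0.36 to -0.01, limma adjusted p = 0.203), and that between MSC-EV and HEK-EV was -0.10 (adjusted p = 0.478). Irf8 also had the smallest spread of the 9 tested genes, with a within-group SD of 0.102 on the log2 scale.

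Batf3 encodes the leucine zipper partner of JUN and of interferon regulatory factors on which cDC1 depend (chr1:191098414-191108943, plus strand). Its level was 22.2, 29.4 and 28.3 TPM in PBS, 24.9, 26.6 and 25.5 in HEK-EV and 20.4, 21.9 and 22.8 in MSC-EV libraries. The MSC-EV libraries lay below all HEK-EV libraries and below PBS replicates 2 and 3, with PBS replicate 1 among them. The difference from PBS was -0.28 (log2, SE 0.101, interval -0.50 to -0.05, limma adjusted p = 0.140) and that from HEK-EV was -0.23 (SE 0.101, limma adjusted p = 0.203). Groups without overlap in this direction between MSC-EV and HEK-EV were found for 17.5% of all genes. Without PBS replicate 1 the difference from PBS was -0.40 with an adjusted p of 0.00954 in limma, in a fit where 13.5% of all genes passed. Without each of the other libraries in turn, Batf3 did not pass against PBS. With all 9 libraries it passed against PBS with array quality weights (-0.42) and with depth as a covariate (-0.56). Depth was highest in the MSC-EV libraries, so the latter fit cannot fully separate depth from group.

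Over the 5 cDC1 genes the summed level was 219 to 254 TPM in PBS, 214 to 240 in HEK-EV and 200 to 215 in MSC-EV libraries, and most of it was Irf8. Clec9a and Xcr1 had within-group SDs of 0.312 and 0.245 (log2), against 0.133 for Batf3, 0.102 for Irf8 and 0.130 for the median gene. Clec9a and Xcr1 also had lower mean levels (7.63 and 1.42 TPM) than Batf3 and Irf8 (24.7 and 190 TPM). The surface gene Itgae, under 1 TPM, had an SD of 0.171. The part of expression level in these spreads was not tested.

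**Figure D2:**
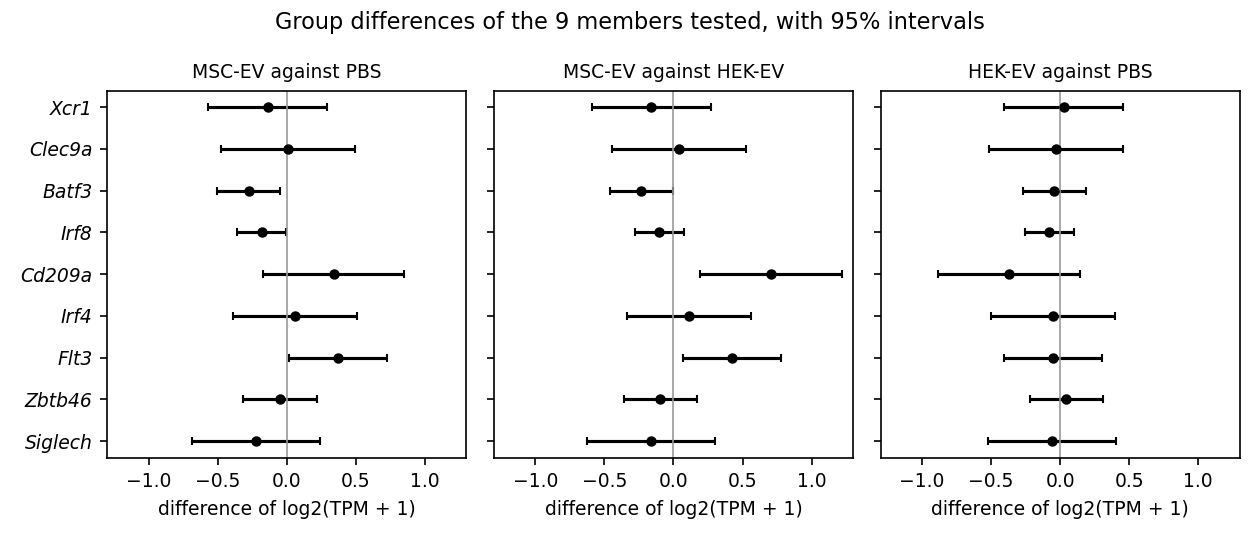
Difference of log2(TPM + 1) between groups (first group minus second) for the 9 genes tested, with 95% intervals from limma, in 3 panels for the 3 comparisons. Cd209a for MSC-EV against HEK-EV (0.71) lay farthest from 0, and no gene passed an adjusted p of 0.05.

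Cd209a, a C-type lectin gene of the DC-SIGN family, is a marker of cDC2 and of monocyte-derived dendritic cells (chr8:3743395-3748984, minus strand). It was at 83.4, 83.4 and 64.1 TPM in PBS, 69.9, 71.0 and 41.2 in HEK-EV and 92.8, 125 and 78.5 in MSC-EV libraries. All MSC-EV libraries were above all HEK-EV libraries, but MSC-EV replicate 3 lay below PBS replicates 1 and 2. The group means were 76.95 ± 11.1, 60.7 ± 16.9 and 98.7 ± 23.7 TPM (SD, n = 3 each). MSC-EV exceeded HEK-EV by 0.71 (log2, 1.63-fold, SE 0.228, interval 0.19 to 1.22), which did not pass the threshold (limma adjusted p = 0.0989). Groups without overlap in this direction were found for 12.6% of all genes. The differences from PBS were 0.34 for MSC-EV (interval -0.17 to 0.85, limma adjusted p = 0.423) and -0.37 for HEK-EV (interval -0.88 to 0.14, adjusted p = 0.999).

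Cd209a had the largest within-group SD of the 9 tested genes (0.342, log2), above that of 92.3% of all genes tested. Leaving out single libraries moved its MSC-EV against HEK-EV difference between 0.45 and 0.86 without a call. Its neighbours of the same family, whose sequences are close enough that reads may be split between them, were much lower. Cd209d was at 1.48 to 1.92 TPM in PBS, 1.74 to 2.05 in HEK-EV and 2.21 to 4.76 in MSC-EV libraries, and so did not overlap between MSC-EV and the other groups. Groups without overlap in this direction were found for 11.2% of all genes tested against PBS and 12.6% against HEK-EV. Cd209f lay at 8.97 to 11.8 TPM in PBS, 5.04 to 12.5 in HEK-EV and 2.52 to 8.09 in MSC-EV libraries, with its lower values in MSC-EV. Cd209c in MSC-EV libraries (5.40 to 6.51 TPM) lay above HEK-EV (3.59 to 4.13) but overlapped PBS (4.69 to 7.81). Cd209b and Cd209g overlapped between MSC-EV and both other groups. Cd209e was higher in MSC-EV libraries than in all others, but at most at 0.456 TPM.

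Irf4 encodes the factor that supports cDC2 migration and presentation on MHC class II (chr13:30749233-30766981, plus strand). Its level was 10.9, 9.46 and 8.18 TPM in PBS, 11.0, 11.0 and 6.06 in HEK-EV and 9.16, 11.2 and 9.44 in MSC-EV libraries. HEK-EV replicate 3 was lowest and the groups overlapped. The difference between MSC-EV and PBS was 0.06 (log2, SE 0.200, interval -0.39 to 0.51, limma adjusted p = 0.891). Irf8 was 16.5 to 29.1 times as abundant as Irf4 in TPM, with the highest ratio in HEK-EV replicate 3.

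Of the genes shared by both conventional subsets, Flt3 encodes the receptor for FLT3 ligand, the growth factor that drives dendritic cell development (chr5:147330741-147400489, minus strand). It was at 21.8, 17.6 and 14.1 TPM in PBS, 15.6, 19.3 and 16.1 in HEK-EV and 21.7, 20.7 and 27.0 in MSC-EV libraries. MSC-EV libraries were above all HEK-EV libraries, while PBS replicate 1 lay among them. The log2 difference was 0.42 against HEK-EV (SE 0.157, interval 0.07 to 0.78, limma adjusted p = 0.144) and 0.37 against PBS (SE 0.157, interval 0.01 to 0.72, limma adjusted p = 0.198). Flt3l, which encodes the ligand, lay between 10.7 and 13.8 TPM in every library, so that the ratio of Flt3 to Flt3l was 1.14 to 1.89 in PBS, 1.20 to 1.40 in HEK-EV and 1.82 to 2.52 in MSC-EV libraries. The predicted gene Gm26597 overlaps Flt3 on the other strand.

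Zbtb46, a zinc finger factor gene restricted among leukocytes largely to conventional dendritic cells, marks both subsets (chr2:181371009-181493262, minus strand). It was found at 8.47, 6.36 and 6.12 TPM in PBS, 6.84, 7.03 and 7.65 in HEK-EV and 6.94, 6.22 and 6.81 in MSC-EV libraries. All groups overlapped, and PBS replicate 1 was highest. The differences were -0.05 for MSC-EV against PBS (log2, interval -0.32 to 0.22, limma adjusted p = 0.848) and -0.09 for MSC-EV against HEK-EV (interval -0.36 to 0.17, limma adjusted p = 0.691). Zgpat, Lime1 and Slc2a4rg-ps overlap it on the other strand, and Zgpat alone lay at 24.3 to 30.9 TPM, so part of the Zbtb46 signal is uncertain.

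Siglech, which encodes the surface receptor Siglec-H of mouse plasmacytoid cells, was the only plasmacytoid gene of the set (chr7:55768154-55779448, plus strand). It was at 1.37, 1.07 and 1.03 TPM in PBS, 0.795, 1.59 and 0.894 in HEK-EV and 0.411, 1.19 and 1.03 in MSC-EV libraries. The groups overlapped, and the highest and lowest libraries differed 3.88-fold. The difference between MSC-EV and PBS was -0.22 (log2, SE 0.206, interval -0.69 to 0.24, limma adjusted p = 0.576). Without MSC-EV replicate 1, the lowest library, it was -0.03. Coverage over Siglech was 0.406 to 1.28 reads per base, and the predicted gene Gm39015 overlaps it on the other strand.

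By mean level over the 9 libraries the order was Irf8 (190 TPM), Cd209a (78.8), Batf3 (24.7), Flt3 (19.3), Irf4 (9.59), Clec9a (7.63), Zbtb46 (6.94), Xcr1 (1.42), Siglech (1.04) and Itgae (0.709). TPM are per transcript length, and by TPM ranges over libraries did not overlap between Irf8 and Cd209a, Cd209a and Batf3, Flt3 and Irf4, or Zbtb46 and Xcr1. They overlapped between Batf3 and Flt3, Irf4 and Clec9a, Clec9a and Zbtb46, Xcr1 and Siglech, and Siglech and Itgae. Coverage, which also moves with depth, gave another picture. Of the 4 pairs separate by TPM, 3 overlapped by coverage: Irf8 (273 to 391) with Cd209a (99.3 to 364), Flt3 (23.15 to 44.1) with Irf4 (14.6 to 32.7), and Zbtb46 (3.10 to 3.88) with Xcr1 (1.68 to 4.70). Of the pairs that overlapped by TPM, Batf3 (45.5 to 76.1) lay apart from Flt3 by coverage, Clec9a (12.3 to 23.3) from Zbtb46, and Xcr1 from Siglech (0.406 to 1.28). Itgae (0.857 to 1.96) had a higher range than Siglech. Irf8 exceeded 94.1% of the genes tested in mean level and Siglech 3.39%. Of the 9 tested genes, 8 had a within-group SD above that of the median gene (0.130, log2).

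The subset markers did not move together from library to library. In HEK-EV replicate 3, Cd209a and Irf4 were the lowest of all libraries while Clec9a was the highest. In MSC-EV replicate 2, Cd209a was the highest and Clec9a the second lowest. The ratio of Cd209a to Clec9a was therefore 4.34 in HEK-EV replicate 3 and 21.1 in MSC-EV replicate 2, with 8.69 to 13.8 in the other 7 libraries. MSC-EV replicate 1 had the lowest Xcr1 and Siglech, but its Clec9a (8.32 TPM) was above the median of the 9 libraries. The summed Kupffer cell list (8 genes, all above 0) was also lowest in MSC-EV replicate 2 and HEK-EV replicate 1 (1724 and 2125 TPM), the libraries with the lowest Clec9a, and highest in HEK-EV replicate 3 (4224 TPM). MSC-EV replicate 1 did not follow this order, with a Kupffer sum of 2190 TPM. The summed B cell list, most of it Ighm, was lowest in HEK-EV replicate 3 (102 TPM) and highest in MSC-EV replicate 2 (175 TPM). These 2 libraries were also the lowest and highest for Cd209a and Irf4. The part of Kupffer cell and B cell content in these library values was not tested.

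**Figure D3:**
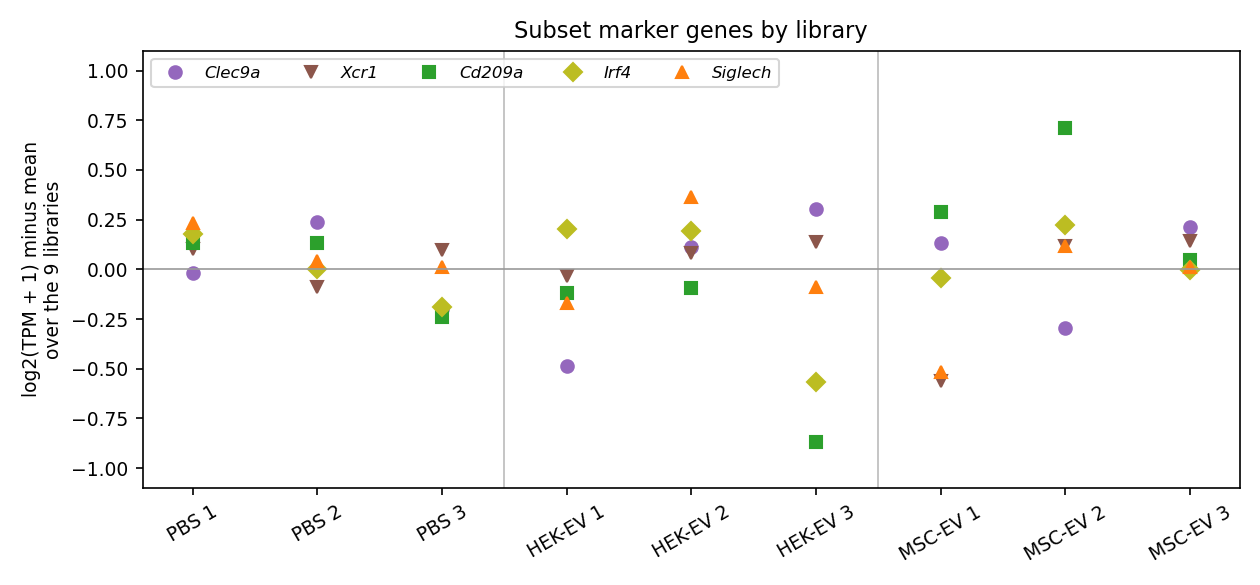
Difference of log2(TPM + 1) from each gene's own mean over the 9 libraries, for 5 subset markers in each library. Cd209a (green squares) and Clec9a (purple circles) lay on opposite sides of 0 in HEK-EV replicate 3 and MSC-EV replicate 2, and Xcr1 and Siglech were lowest in MSC-EV replicate 1.

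The genes whose pattern over the 9 libraries was nearest to 1 marker per subset were found by the mean absolute difference of centred log2 values. For Cd209a these were Tent5c (0.142), Clec10a (0.147) and Psma3 (0.154), out of 9584 genes compared. Clec10a, a lectin gene and itself listed among cDC2 genes, lay at 35.8 to 70.4 TPM. For Clec9a they were the pseudogenes Rpsa-ps12 (0.102), Eef1a1-ps1 (0.107) and Rpl3-ps2 (0.108), with no other listed cDC1 gene among them. For Siglech they were Snx22 (0.0879), Zfp296 (0.103) and Hrh1 (0.112), out of 12610 genes compared. Snx22 stands in the list of other cDC1 genes, and like Xcr1 it was lowest in MSC-EV replicate 1 (1.18 TPM).

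Around the 10 genes, 66 further genes of dendritic cells, their maturation and their ligands and partners were listed, of which 61 could be tested. The lists were chosen with earlier results of these data known. Their shares beside those of all genes are therefore descriptive and cannot show an enrichment. For MSC-EV against PBS 9 of the 61 passed, 4 higher and 5 lower (14.8%, beside 5.11% of all genes, 1.86% higher and 3.25% lower). For MSC-EV against HEK-EV 7 passed, 2 higher and 5 lower (11.5%, beside 5.91%, 1.51% higher and 4.40% lower), and for HEK-EV against PBS none did in limma, beside 0% of all genes. The counts moved with single libraries, as did the counts over all genes. For HEK-EV against PBS, 1 of 61 passed without MSC-EV replicate 1 (Klf4, lower), beside 1 of all genes. Against PBS, Klf4 was the only listed gene still past the threshold without PBS replicate 2 or without PBS replicate 3, where 5 and 7 of all genes passed. Without MSC-EV replicate 1, MSC-EV replicate 2 or HEK-EV replicate 2, 3, 2 and 6 listed genes passed beside 25, 59 and 297 of all genes. Without PBS replicate 1, 24 of the 61 passed (39.3%, beside 13.5% of all genes), and with array quality weights 40 did (65.6%, beside 30.1%). Against HEK-EV, 0 of 61 passed without any single HEK-EV library or without MSC-EV replicate 1 or 2, where at most 31 of all genes did. Without PBS replicate 1, 16 passed (26.2%, beside 9.91% of all genes), and with weights 21 did (34.4%, beside 15.1%).

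Of the other cDC1 genes, 2 of 10 tested fell in MSC-EV against PBS, 0 rose and 8 did not pass, beside 3.25% lower and 1.86% higher over all genes. Nfil3, a factor gene needed early in cDC1 development, fell from 53.9, 60.7 and 73.9 TPM in PBS to 37.6, 32.4 and 39.0 in MSC-EV libraries (log2 difference -0.77, SE 0.153, limma adjusted p = 0.0300). Naaa, which encodes a lysosomal amidase, fell from 122.5, 164 and 169.5 to 97.3, 108 and 95.4 TPM (-0.58, SE 0.119, limma adjusted p = 0.0313), and was also lower than in HEK-EV (-0.57, limma adjusted p = 0.0305). Neither group overlapped with MSC-EV for these genes. Against PBS, Nfil3 passed in 14 of 21 fits and Naaa in 9 of 21, and against HEK-EV Naaa passed in 10 of 21; Naaa was lost in both comparisons with FPKM, median-of-ratios scaling, no filter and the replicate block. Both genes are also used outside dendritic cells. Tlr3, Wdfy4, Cadm1 and Id2, which encode an RNA sensor, a factor of cross-presentation, an adhesion molecule and a transcriptional inhibitor, did not pass. Rab7b went the other way, at 91.0, 70.3 and 66.1 TPM in PBS and 89.2, 99.2 and 101 in MSC-EV libraries, with overlap and no call. Of the 10, 3 had a difference above 0 and 7 below 0, beside 52.3% of all genes above 0. The median of the 10 was -0.20, beside 0.01 over all genes.

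Of the other cDC2 genes, 1 of 12 rose, 1 fell and 10 did not pass in MSC-EV against PBS, and the median was -0.14. Over all genes, 1.86% were called higher and 3.25% lower, with a median of 0.01. Klf4, a zinc finger factor gene of monocytes and of part of cDC2, fell from 101, 109 and 106 TPM in PBS to 36.9, 49.5 and 49.5 in MSC-EV libraries (-1.21, SE 0.103, limma adjusted p = 0.00487). The HEK-EV libraries stood between them at 70.0, 67.2 and 70.7 TPM. Klf4 passed in all 21 fits made for MSC-EV against PBS. For HEK-EV against PBS its difference lay between -0.65 and -0.51 over 21 fits and passed in 1 of them. Epcam rose from 1.08, 1.51 and 0.989 to 2.87, 4.64 and 4.35 TPM (1.17, SE 0.173, limma adjusted p = 0.0171). Epcam encodes an epithelial adhesion protein also found on some dendritic cells, and stands in the biliary list as well. Clec10a was at 51.3, 41.2 and 39.4 TPM in PBS and 60.0, 70.4 and 53.0 in MSC-EV libraries, with no overlap but no call (0.47, limma adjusted p = 0.0920). Against HEK-EV, Epcam was higher (0.77) and Klf4 (-0.61) and Rbpj (-0.35), which encodes the DNA-binding factor of Notch signalling, were lower in MSC-EV, with limma adjusted p of 0.0360, 0.0215 and 0.0341. Epcam passed in 15 of 20 fits against PBS and 11 of 20 against HEK-EV, and Klf4 in 16 of 21 against HEK-EV. Rbpj passed in 8 of 21 against HEK-EV and was lost with FPKM, median-of-ratios scaling and quantile normalization.

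Of the other plasmacytoid genes, 1 of 10 tested rose and 1 fell in MSC-EV against PBS, beside 1.86% higher and 3.25% lower over all genes. Their median was -0.34, beside 0.01 over all genes, with 6 genes lower and 3 higher without overlap between the groups, beside 14.9% and 11.2% of all genes. Tcf4, which encodes the E protein that defines the plasmacytoid lineage, rose from 8.32, 8.07 and 9.32 TPM in PBS to 14.6, 12.7 and 18.6 in MSC-EV (0.75, SE 0.166, limma adjusted p = 0.0379). In HEK-EV it was at 17.0, 11.4 and 16.4 TPM, where the difference from PBS (0.72) did not pass (limma adjusted p = 0.999). Siglech did not rise with it in MSC-EV against PBS (-0.22, not past the threshold). Whether the Tcf4 rise came from plasmacytoid cells was not tested. Runx2, a factor gene used by plasmacytoid cells to leave the bone marrow, fell from 12.0, 14.2 and 12.7 to 7.71, 9.34 and 8.68 TPM (-0.54, SE 0.0927, limma adjusted p = 0.0231), and was also lower than in HEK-EV (-0.48, limma adjusted p = 0.0256). Tcf4 passed in 12 of 21 fits against PBS, and Runx2 in 15 of 21 in each of these comparisons. The defining genes Ccr9 and Pacsin1 stayed at or under 0.30 TPM in every library and were not tested. Klk1 reached 19.0 TPM in HEK-EV replicate 2 and 52.2 TPM in MSC-EV replicate 3, the libraries with most acinar transcripts, and at most 2.85 TPM elsewhere. Bst2 (344 to 543 TPM), Tlr7 (119.5 to 188) and Irf7 (330 to 1061) were abundant in every library, and are genes that other CD11b+ cells use too.

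Of 10 other conventional dendritic genes, 0 passed in any comparison in limma, beside the backgrounds of 5.11%, 5.91% and 0%. Ciita, the master regulator gene of MHC class II, was at 29.1, 26.8 and 19.0 TPM in PBS and 45.7, 39.7 and 32.8 in MSC-EV libraries, with no overlap (0.65, SE 0.182, limma adjusted p = 0.0726). Their median for MSC-EV against PBS was 0.04. Of 9 mature dendritic genes tested, 1 rose in MSC-EV against PBS (beside 1.86% of all genes called higher), 8 had a difference above 0 (beside 52.3% of all genes), and the median was 0.37, beside 0.01 over all genes. Cacnb3, a calcium channel subunit gene, rose from 2.92, 1.44 and 1.08 to 4.91, 6.08 and 3.26 TPM (1.05, SE 0.257, limma adjusted p = 0.0492). This call stood in 7 of the 20 fits that held the gene, and was lost among others with a pseudocount of 0.1, median-of-ratios scaling, quantile normalization, only the 6 samples compared and the acinar split as a term. Ccr7, the receptor gene that guides mature dendritic cells to lymph nodes, was at 2.91, 2.03 and 1.26 TPM in PBS, 2.0, 2.41 and 2.32 in HEK-EV and 6.73, 4.73 and 3.0 in MSC-EV libraries. Its MSC-EV libraries were above all others, but its difference from PBS did not pass (0.91, SE 0.253, limma adjusted p = 0.0701). Ccl17 (1.40, limma adjusted p = 0.0606) and Ccl22 (0.82, limma adjusted p = 0.0962), chemokine genes of mature dendritic cells, did not pass either.

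**Figure D4:**
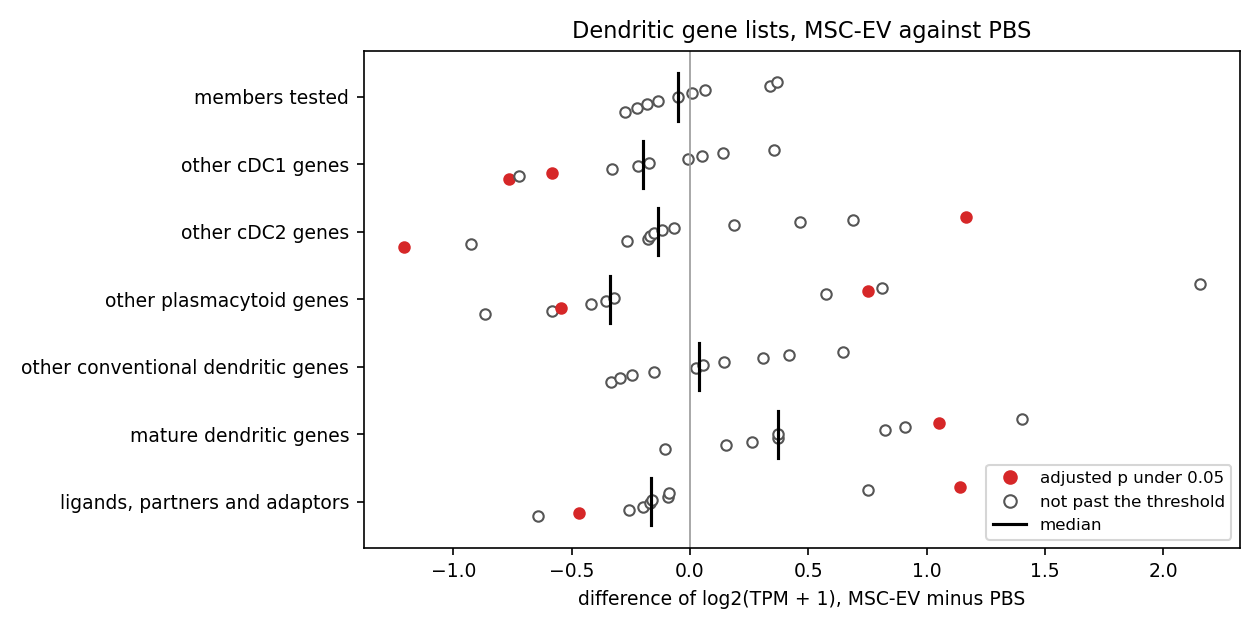
Difference of log2(TPM + 1), MSC-EV minus PBS, for each tested gene of the dendritic lists (1 point per gene), filled red where the adjusted p was under 0.05, with a bar at each list's median. In each row, the top one pooling the 9 tested genes of all subsets, points lay on both sides of 0, and the mature dendritic row had the highest median (0.37).

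Among ligands, partners and adaptors, 1 of 10 rose and 1 fell in MSC-EV against PBS, and the median was -0.17. The backgrounds over all genes were 1.86% higher, 3.25% lower and a median of 0.01. Cdh1, which encodes E-cadherin, the ligand of CD103, rose from 2.90, 2.82 and 2.22 TPM in PBS to 6.24, 7.66 and 7.18 in MSC-EV libraries (1.14, SE 0.127, limma adjusted p = 0.00973), and was higher than in HEK-EV too (0.81, limma adjusted p = 0.0205). E-cadherin is also an epithelial protein. Jun, which encodes a partner of BATF3, fell from 420, 412.5 and 382 to 266, 277 and 338 TPM (-0.47, SE 0.101, limma adjusted p = 0.0348). Csf2rb, the shared receptor chain gene for GM-CSF, was lower in MSC-EV than in HEK-EV libraries (-0.33, limma adjusted p = 0.0283). Cdh1 passed in 19 of 21 fits against PBS and 16 of 21 against HEK-EV, and Csf2rb in 11 of 21 against HEK-EV. Jun passed in 10 of 21 against PBS and was lost with quantile normalization, no filter, only the 6 samples compared, the replicate block and depth as a covariate.

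In the interferon regulatory factor family, Irf5 fell from 375.5, 428 and 395 TPM in PBS to 297, 314 and 318 in MSC-EV libraries (-0.37, SE 0.0658, limma adjusted p = 0.0251), and was lower than in HEK-EV (-0.34, limma adjusted p = 0.0261). It passed in 13 of 21 fits in each of these comparisons. Irf8 and Irf4 did not pass, and neither did the 3 BATF family genes. Batf was at 36.9 to 39.8 TPM in PBS, 38.6 to 45.9 in HEK-EV and 33.8 to 35.8 in MSC-EV libraries.

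Markers of other cells moved with the groups. For the counts that follow, 1.86% of all genes were called higher and 3.25% lower in MSC-EV against PBS. Of 10 Ly6C-high monocyte genes 5 fell in MSC-EV against PBS (median -1.03), and their summed level was 6693 to 13270 TPM in PBS, 8468 to 10780 in HEK-EV and 4156 to 5101 in MSC-EV libraries. Klf4, Irf8 and Irf5 are genes that monocytes also use. Of 6 biliary genes tested 3 rose, with sums of 741 to 1710, 895 to 1185 and 1772 to 2360 TPM, most of it Spp1. Sox9, among the 6 tested, reached 1 TPM only in the 3 MSC-EV libraries and lay at 0.345 to 0.720 TPM in the others. It passed the filter only through the group where it was higher, so its test cannot count as evidence of a rise. Krt19, a biliary keratin gene, averaged 1.17 TPM in PBS and 5.53 TPM in MSC-EV libraries, where Epcam and Cdh1 were also higher. Of 8 hepatocyte genes 2 rose, with sums of 191 to 260, 139 to 282 and 355 to 465 TPM. Of 3 T cell genes tested 1 rose (Cd28), with sums of the 8 listed genes of 5.76 to 11.3, 6.34 to 10.8 and 11.8 to 18.7 TPM, while Cd3d, Cd3e and Cd3g stayed under 1 TPM in every library, each at 0 in 1 to 3 of them. Neutrophil sums were 3021 to 5580, 4999 to 6872 and 2947 to 3755 TPM, with 1 of 10 genes higher. Kupffer sums were 2998 to 3656, 2125 to 4224 and 1724 to 2969 TPM, with 0 of 8 genes past the threshold in limma. B cell sums were 142 to 159, 102 to 171 and 132 to 175 TPM, plasma cell sums 185 to 260, 206 to 230 and 168 to 199, NK cell sums 23.4 to 34.1, 24.0 to 34.8 and 27.4 to 39.6, and eosinophil, basophil and mast cell sums 11.7 to 14.6, 14.1 to 18.2 and 13.8 to 16.3, with no gene of these 4 lists past the threshold against PBS. Against HEK-EV, 5 monocyte genes and 1 neutrophil gene were called lower in MSC-EV, beside 4.40% of all genes. Called higher were 3 hepatocyte, 3 biliary, 1 T cell and 1 neutrophil gene, beside 1.51% of all genes. The limit given for Sox9 holds here too. The part of these cells in the differences of the dendritic genes was not tested.

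With the acinar split as a term in the fit, 21 of all genes passed for MSC-EV against PBS, and of the 61 listed genes Klf4 and Cdh1 still did. The differences of the 9 tested genes under that fit kept their sign for MSC-EV against PBS except for Xcr1 (0.01) and Irf4 (-0.11). None of the 9 passed under it in any comparison.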

How the data were processed

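CD11b+ liver cells gave RNA by Trizol extraction, sequenced as TruSeq Stranded mRNA libraries, according to the labels. HISAT2 2.1.0, StringTie and the build mm10 are named in the submitters' processing notes; strand setting and annotation release are not given in the sources used here. Each library had 1 table with coverage (mean read signal over a gene), FPKM and TPM as deposited by the authors, per the file headers, with TPM summing to 1000000. Gene IDs were matched to RefSeq GRCm38.p6 symbols (45679 of 45777, 99.79%; start and end were the same for 96.4%), and rows of an ID were summed. Coordinates of genes are the files' own.

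Differences of log2(TPM + 1) were tested two-sided with limma (version 3.58.1, under R 4.3.3; a linear model, contrasts and eBayes with trend) over the 13820 genes that reached 1 TPM in 3 or more of the 9 libraries, all groups in 1 fit, with Benjamini-Hochberg adjustment over these genes and a threshold of 0.05. Fold changes are on the log2(TPM + 1) scale, which understates those of low genes. An exact permutation test of 3 against 3 cannot go below p = 0.1 and was not used. Pairs of libraries of a group had r of 0.980 to 0.993 across genes.

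The members, lists and tests were chosen with earlier results of these data known. All 10 members are named, and up to 4 genes of smallest p for MSC-EV against PBS per list; other named genes were chosen after their values were seen. A result on 1 listed gene is not reported here. Alternatives were a pseudocount of 0.1, other filters and scalings, FPKM, 6 samples only, array quality weights, a replicate block, depth, and each library left out. The planned acinar split put all 9 libraries on the same side; the split used leaves out Cela1 and Ctrl and was chosen after seeing the data. Tables were handled in Python 3.11.15 (pandas 2.3.3, numpy 2.4.6, scipy 1.17.1) and drawn with matplotlib 3.10.9.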

Additional observations from a re-analysis of the deposited data

How the results depend on the processing

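The number of the 9 tested dendritic genes past the threshold for MSC-EV against PBS was 3 with array quality weights (Batf3 -0.42, Irf8 -0.23, Flt3 0.35), 1 with depth as a covariate (Batf3 -0.56) and 0 to 1 with single libraries left out. For MSC-EV against HEK-EV it was 1 with array quality weights (Batf3 -0.28), 1 with the replicate block (Cd209a 0.71, adjusted p = 0.0281), 2 with depth (Batf3 -0.36, Flt3 0.58) and 0 to 0 with libraries left out, and for HEK-EV against PBS it stayed 0 under every alternative run. Batf3, Irf8, Cd209a and Flt3 kept their direction under all 20 alternatives in both MSC-EV comparisons. In several of these the direction could not turn, because the difference of the 2 groups stays the same. These are the other filters, 6 samples only, the replicate block and leaving out a library of the third group. For MSC-EV against HEK-EV the acinar split also left it the same. Over all genes, 706 calls for MSC-EV against PBS became 361 without a filter, 77 with 6 samples only, 4163 with weights, 404 with the block, 21 with the acinar split, 1340 with depth and 5 to 1861 with libraries left out. The 817 for MSC-EV against HEK-EV became 387 without a filter, 459 with FPKM, 512 with median-of-ratios scaling, 2081 with weights, 448 with the block, 1446 with depth and 0 to 1369 with libraries left out. The 0 for HEK-EV against PBS became 4 without a filter and 0 to 2 with libraries left out. The share of calls that were higher moved from 36.4% to 63.1% with FPKM and 47.2% with median-of-ratios scaling against PBS, and from 25.6% to 59.5% and 46.3% against HEK-EV. The cause of these changes was not tested, and the fits with depth cannot fully separate depth from the MSC-EV group.

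Signs turned for small differences only. Against PBS in MSC-EV libraries, Clec9a was -0.0281 with quantile normalization and -0.12 with weights, Zbtb46 was 0.0519 with weights and 0.28 with depth, and Xcr1 and Irf4 were 0.0098 and -0.11 with the acinar split. For MSC-EV against HEK-EV, Irf4 was -0.0092 with weights and Zbtb46 0.0471 with depth. For HEK-EV against PBS, Irf4, Flt3 and Siglech were 0.0478, 0.0268 and 0.11 with weights, Siglech was 0.0016 with the acinar split, and Xcr1, Clec9a, Irf4 and Flt3 were -0.0095, 0.0077, 0.0328 and 0.15 with depth. With libraries left out, the MSC-EV against PBS ranges that crossed 0 were -0.0938 to 0.17 (Clec9a), -0.0315 to 0.15 (Irf4), -0.26 to 0.0948 (Xcr1) and -0.13 to 0.0797 (Zbtb46). Those of MSC-EV against HEK-EV were -0.19 to 0.20 (Clec9a), -0.14 to 0.24 (Irf4), -0.29 to 0.0296 (Siglech) and -0.28 to 0.0698 (Xcr1). Those of HEK-EV against PBS were -0.16 to 0.0324 (Batf3), -0.19 to 0.20 (Clec9a), -0.20 to 0.0942 (Flt3), -0.18 to 0.20 (Irf4), -0.22 to 0.0419 (Siglech), -0.0376 to 0.0724 (Xcr1) and -0.0318 to 0.17 (Zbtb46). Over all genes tested, no pairing of the samples by replicate number was seen. No pair with the same number correlated above 0.1 in its deviations from the group means. Of 6 samples, 1, 0 and 2 correlated best with their own number in the 3 comparisons. Correlations over all genes cannot exclude a pairing that acts on part of the genes. Itgae entered only without a filter, and Xcr1 and Siglech did not enter with a minimum of 5 TPM. With 3 libraries a group and no counts, differences of low genes within the intervals given were not detectable.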
